A study of Mus musculus with 4 samples.

Results

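Transcripts of the corticosteroid receptors and of genes that these receptors regulate were followed in mouse kidney cells from a pair of hypertension models. The group comprises 9 genes chosen by name, among 11049 genes listed in all 3 tables of the libraries, and each of the 9 was listed in every table. They are Nr3c1 and Nr3c2, the receptors, the kinases Sgk1 and Sgk3, the ubiquitin ligase Nedd4l, and the hormone-induced genes Tsc22d3, Per1, Fkbp5 and Zbtb16. The mice were C57BL/6J aged 10 to 14 weeks and formed 4 groups, in which A2 HTN is hypertension induced with angiotensin II, SS HTN is salt sensitive hypertension, A2 Ctrl is the angiotensin II control, given saline, and SS Ctrl the salt control, on normal diet. Each group is 1 library from pooled kidneys, with no replicate, and its cells were captured with antibodies to CD31 and, in a further round, to podoplanin. The study asked how hypertension affects lymphatic endothelial cells of the kidney and how the models differ. The controls shared 1 table whose barcode endings separate them as control library 1 and control library 2, and the sources used here do not tie an ending to A2 Ctrl or SS Ctrl. No difference between libraries could therefore be tested, no p-value is given, and each 95% interval covers counting error only.

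Nr3c1 encodes the glucocorticoid receptor and Nr3c2 the mineralocorticoid receptor, transcription factors that HSP90 chaperones hold in the cytoplasm until a steroid binds. The hormone-bound receptors enter the nucleus and bind hormone response elements near genes such as Sgk1, Tsc22d3, Per1, Fkbp5 and Zbtb16. In the distal nephron aldosterone acts through the mineralocorticoid receptor, the kinase SGK1 phosphorylates NEDD4L, and less of the epithelial sodium channel is then removed from the membrane. Angiotensin II is a main stimulus of aldosterone release from the adrenal gland.

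The response element is written in the promoter sequence of Sgk1, and the windows below are shown because Sgk1 and Tsc22d3 are the members that were over 1.5-fold higher in endothelial cells than in other cells in A2 HTN, SS HTN and control library 2. RefSeq promoter windows of 300 bases on GRCm38.p6 were found for 5 of the 9 genes, 13 windows in all. The full element was searched as AGAACA, any 3 bases and TGTTCT, a pattern that is its own reverse complement, and the single arm as AGAACA on either strand, so that the arms of a full element also count as single arms. The full element occurred in 3 of 32851 windows of all genes (0.00913%), and 1 of them was a window of Sgk1. The single arm occurred in 6233 of 32851 windows (19.0%) and in 4 of the 13 windows here. In the Sgk1 window printed here the full element begins 189 bases before the start site of that window. In the Tsc22d3 window a single arm begins 185 bases before its own. Capitals mark these matches, and a single arm outside the full element in the Sgk1 window is left in lower case. Other Sgk1 windows with a single arm are not printed. A match describes letters only and not a site in use.
Sgk1 chr10:21993640-21993939, plus strand: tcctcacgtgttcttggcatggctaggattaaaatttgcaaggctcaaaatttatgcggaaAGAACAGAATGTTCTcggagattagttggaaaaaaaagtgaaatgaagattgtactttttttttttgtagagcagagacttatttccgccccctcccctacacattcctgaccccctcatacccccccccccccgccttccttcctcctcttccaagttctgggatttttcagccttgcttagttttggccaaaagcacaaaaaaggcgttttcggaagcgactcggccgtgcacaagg
Tsc22d3 chrX:140600473-140600772, minus strand: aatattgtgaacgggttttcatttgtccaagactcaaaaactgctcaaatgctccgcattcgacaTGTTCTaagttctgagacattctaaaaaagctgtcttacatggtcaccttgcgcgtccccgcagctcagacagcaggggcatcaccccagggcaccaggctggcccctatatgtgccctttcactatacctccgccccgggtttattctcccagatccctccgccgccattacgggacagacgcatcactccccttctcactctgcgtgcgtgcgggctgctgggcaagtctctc

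Endothelial cells were barcodes in which the endothelial genes Pecam1, Cdh5, Kdr and Tie1 together had at least 3 UMIs (unique molecular identifiers, each 1 captured transcript) and at least 12 per 10000 UMIs. By this gate 1223 of 2837 cells in the A2 HTN library were endothelial (43.1%, 41.3 to 45.0), 1517 of 3284 in the SS HTN library (46.2%, 44.5 to 47.9), 19 of 2406 in control library 1 (0.790%) and 126 of 2008 in control library 2 (6.27%). Most cells of every library thus lay outside the gate, although the labels describe them as CD31+/podoplanin+. The other cells carried mainly tubule transcripts, and 88.4% to 94.8% of them fell in a proximal tubule class set by marker UMIs. Endothelial cells had median depths of 4734, 2342, 1995 and 2809.5 UMIs in A2 HTN, SS HTN, control library 1 and control library 2, and other cells 856.5, 997, 962 and 531. The libraries held 7479337 UMIs in A2 HTN, 6471741 in SS HTN, 2801925 in control library 1 and 1727731 in control library 2. Libraries shared at most 2 barcodes with each other. The labelled lymphatic identity was not separable, since 3 of 8 lymphatic markers were analysed and their sum was 198, 187, 175 and 172 CPM in endothelial cells against 144, 114, 117 and 111 CPM in other cells. CPM are UMIs of a gene per 1000000 UMIs of the 11049 genes, in the sum over a library's cells of 1 kind. In such sums fewer cells that express a gene and less RNA per cell cannot be told apart. The 19 endothelial cells of control library 1 give levels only, 9 of them held over 1% tubule marker UMIs, and no ratio uses them.

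Endothelial cells set against the other cells of the same library separated the 9 genes into groups that recurred in the 3 libraries compared. Sgk1 and Tsc22d3 were higher in endothelial cells, while Nr3c2, Zbtb16 and Nedd4l were lower, in A2 HTN, SS HTN and control library 2 alike. A gene was counted as different where the log2 ratio of CPM + 5 passed 1.5-fold with 20 or more UMIs in both sums together. By this count 8 of the 9 genes differed in A2 HTN, 3 higher and 5 lower in endothelial cells, where 66.8% of all tested genes did, 26% higher and 40.8% lower. In SS HTN 6 differed, 2 higher and 4 lower, where 63.8% of genes did, 24.5% higher and 39.3% lower. In control library 2 the members' counts were the same as in SS HTN, where 71% of genes did, 26.4% higher and 44.6% lower. These counts are near the background of all genes between the cell kinds.

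**Figure D1:**
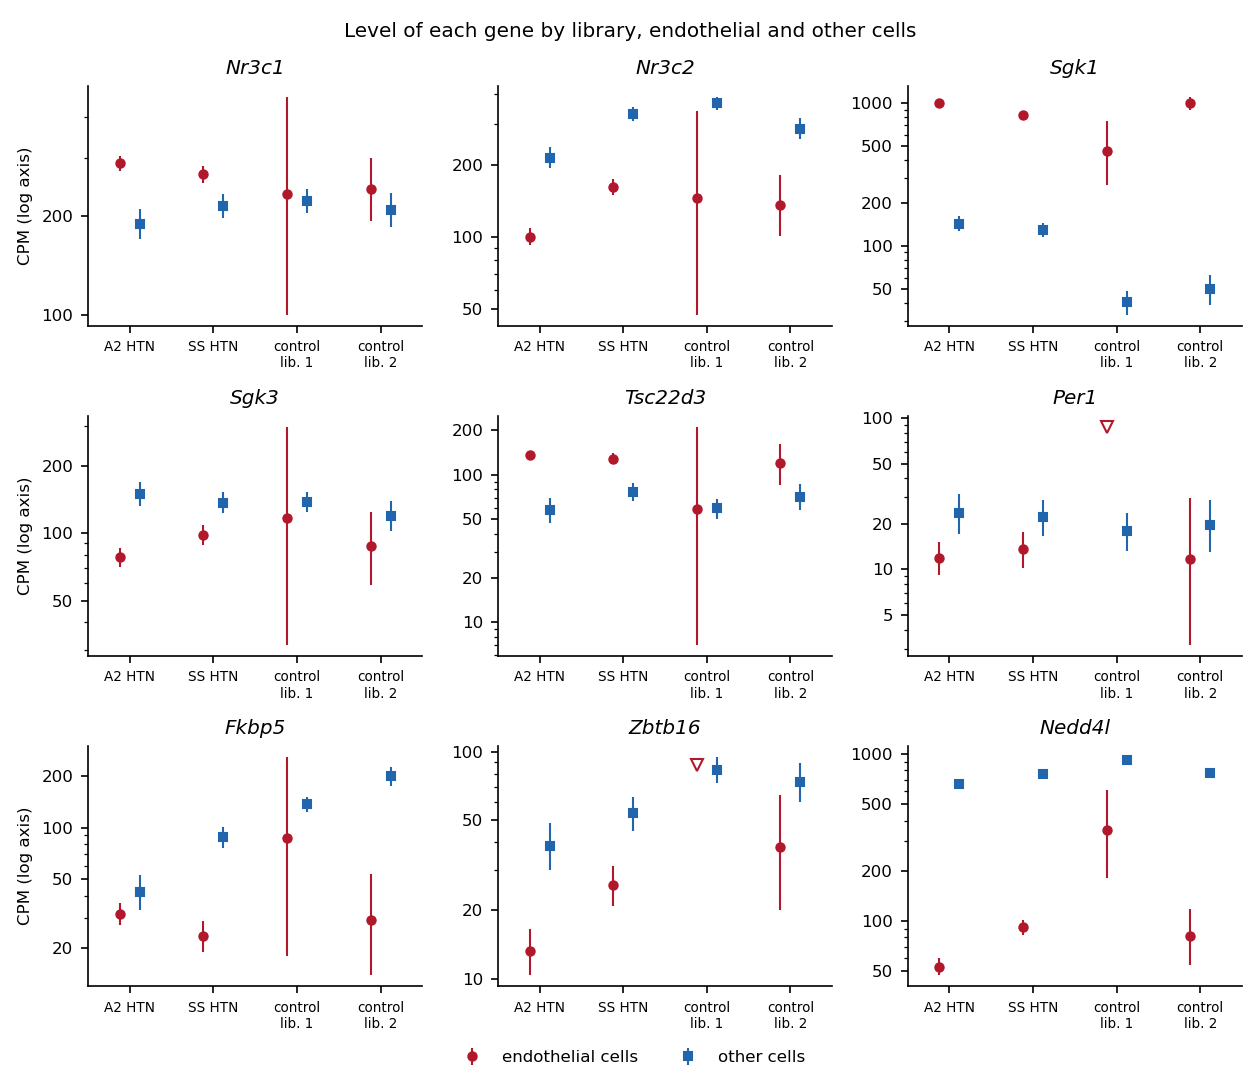
Level of each gene in CPM (log axis) in endothelial cells (circles) and other cells (squares) of the A2 HTN, SS HTN and both control libraries, with exact Poisson 95% intervals for counting error; open triangles mark the upper limit that 3 counts give where no UMI was found. Sgk1 and Tsc22d3 circles lie above the squares in A2 HTN, SS HTN and control library 2, and Nr3c2 and Nedd4l circles lie below them.

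Nr3c1, the glucocorticoid receptor gene, varied little among libraries. Its level in endothelial cells was 289 CPM in A2 HTN (275 to 303), 267 in SS HTN (251 to 284), 233 in control library 1 (101 to 459) and 242 in control library 2 (193 to 299.9), and these intervals overlap between neighbours in that order. In other cells it was 190 CPM in A2 HTN (170 to 210), 215 in SS HTN (197 to 234), 222 in control library 1 (205 to 241) and 209 in control library 2 (185 to 234). None of its 8 ratios between a hypertension library and another library passed 1.5-fold, and they lay between -0.22 and 0.25 on the log2 scale. Endothelial cells carried more Nr3c1 than other cells by a log2 ratio of 0.59 in A2 HTN (0.44 to 0.78), 0.31 in SS HTN (0.16 to 0.47) and 0.21 in control library 2 (-0.16 to 0.57).

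Nr3c2, the mineralocorticoid receptor gene, was lowest in the A2 HTN library in both kinds of cell. In endothelial cells it stood at 100.4 CPM in A2 HTN (92.2 to 109), 163 in SS HTN (151 to 176), 146 in control library 1 (47.3 to 340) and 137 in control library 2 (101 to 182). The A2 HTN and SS HTN intervals do not overlap, whereas both control intervals are wide and overlap those of A2 HTN and SS HTN. In other cells the level was 216 CPM in A2 HTN (195 to 238), 329 in SS HTN (306 to 352), 365 in control library 1 (343 to 388) and 285 in control library 2 (258 to 315). There too the A2 HTN interval lies below the 3 others. The log2 ratio of A2 HTN over SS HTN was -0.67 in endothelial cells (-0.87 to -0.53) and -0.59 in other cells (-0.78 to -0.43). Against the controls the ratio in other cells was -0.74 over control library 1, past 1.5-fold, and -0.40 over control library 2, short of it. The gap held at equal depth, since 8.96% of A2 HTN endothelial cells thinned to 1000 UMIs each had an Nr3c2 UMI (7.40 to 10.7, 1194 cells) against 13.5% in SS HTN (11.8 to 15.3, 1478 cells). Without thinning the shares were 27.2% and 26.9%, at median depths of 4734 and 2342 UMIs.

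Sgk1, the early hormone-induced kinase gene, was an endothelial transcript in these libraries. In endothelial cells it reached 1009 CPM in A2 HTN (983 to 1036), 832 in SS HTN (803 to 861), 466 in control library 1 (266 to 756) and 997 in control library 2 (894 to 1108). A2 HTN and control library 2 overlap, SS HTN lies below both, and the 16 UMIs of control library 1 include 6 from 1 cell. The A2 HTN over SS HTN log2 ratio was 0.28 (0.22 to 0.34) and the SS HTN over control library 2 ratio -0.26 (-0.42 to -0.10), so neither passed 1.5-fold. After thinning to 1000 UMIs, 50.9% of A2 HTN and 50.2% of SS HTN endothelial cells had a Sgk1 UMI, with overlapping intervals. Endothelial cells exceeded other cells by log2 ratios of 2.78 in A2 HTN (2.64 to 3.0), 2.65 in SS HTN (2.52 to 2.86) and 4.20 in control library 2 (3.95 to 4.73). In these libraries 13, 14 and 10 of 16 immediate early genes, which handling of tissue can induce, were higher in endothelial cells. The numbers lower were 0, 0 and 3. Of all genes 26%, 24.5% and 26.4% were higher and 40.8%, 39.3% and 44.6% lower. The part of handling in the Sgk1 level was not tested.

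In the other cells Sgk1 was higher in both hypertension libraries than in both controls. Its level there was 143 CPM in A2 HTN (126 to 161), 129 in SS HTN (115 to 144), 40.1 in control library 1 (33.0 to 48.4) and 49.6 in control library 2 (38.5 to 62.9). Endothelial markers outside the gate moved with it, as their 6 genes summed to 2021 CPM in A2 HTN, 2067 in SS HTN, 910 in control library 1 and 930 in control library 2 in the same cells. Sgk1 in other cells was 14.2%, 15.5% and 4.98% of its endothelial level in A2 HTN, SS HTN and control library 2, and these markers were 17.3%, 21.7% and 8.15% of theirs. In the other cells with no UMI of 10 endothelial markers, Sgk1 was 96.9 CPM in A2 HTN (64.4 to 140.1, 390 cells), 54.7 in SS HTN (28.3 to 95.6, 289 cells), 46.5 in control library 1 (32.6 to 64.3, 864 cells) and 37.3 in control library 2 (24.4 to 54.7, 1090 cells). In those cells the A2 HTN interval lies just above those of the controls and the SS HTN interval overlaps all of the others. Their median depths were 636 UMIs in A2 HTN, 650 in SS HTN, 750 in control library 1 and 482 in control library 2. Other cells with an endothelial marker UMI were deeper, at 993.5, 1130.5, 1137 and 635.5 UMIs. In the proximal tubule class Sgk1 was 110 CPM in A2 HTN (94.6 to 127), 79.9 in SS HTN (68.5 to 92.5), 40.4 in control library 1 (33.1 to 48.9) and 46.2 in control library 2 (34.6 to 60.5), so that both hypertension libraries lie above both controls. The SS HTN log2 ratio in that class was 0.90 over control library 1 (0.63 to 1.34) and 0.73 over control library 2 (0.34 to 1.26). Podocyte markers in the other cells moved with Sgk1 too, at 433 CPM in A2 HTN, 604 in SS HTN, 267 in control library 1 and 305 in control library 2. A class set by these markers held 50 of the 267 Sgk1 UMIs of A2 HTN in 17 cells and 90 of the 315 of SS HTN in 43 cells. The part of endothelial and podocyte transcripts in the result was not tested.

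Sgk3, the related kinase that sits on endosomes, differed little. Endothelial levels were 78.1 CPM in A2 HTN (70.9 to 85.8), 98.2 in SS HTN (88.7 to 108), 116 in control library 1 (31.7 to 298) and 87.4 in control library 2 (59.0 to 125). The A2 HTN interval lies below that of SS HTN, and the controls overlap both. In other cells the levels were 149.9 CPM in A2 HTN, 137 in SS HTN, 138 in control library 1 and 120 in control library 2, with overlapping intervals. Within A2 HTN it was lower in endothelial than in other cells by a log2 ratio of -0.90 (-1.16 to -0.72), and no ratio between libraries passed 1.5-fold.

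Nedd4l, the ubiquitin ligase that SGK1 restrains, was the most tubular of the 9 genes by the ratio of endothelial over other cells. In other cells it stood at 662 CPM in A2 HTN (626 to 700), 755 in SS HTN (721 to 790), 921 in control library 1 (885 to 957) and 769 in control library 2 (724 to 817). In endothelial cells it was 53.3 CPM in A2 HTN (47.4 to 59.7), 91.6 in SS HTN (82.5 to 102), 349 in control library 1 (180 to 610.1) and 81.6 in control library 2 (54.2 to 118). The endothelial over other ratio was -3.52 in A2 HTN, -2.98 in SS HTN and -3.16 in control library 2 on the log2 scale. Tubule marker transcripts in endothelial cells moved with it, at 801 CPM in A2 HTN, 1497 in SS HTN, 11176 in control library 1 and 1256 in control library 2, and their part in the endothelial Nedd4l level was not tested. That level was 8.05%, 12.1% and 10.6% of the level in other cells in A2 HTN, SS HTN and control library 2, while the 21 tubule markers summed to 4.08%, 6.85% and 5.93% of theirs. The log2 ratio of A2 HTN over SS HTN in endothelial cells was -0.73 (-1.01 to -0.56). Without endothelial cells over 1% tubule UMIs, 33 in A2 HTN and 25 in SS HTN, the levels were 47.1 CPM in A2 HTN and 83.5 in SS HTN. The gap was as wide, but the cut leaves tubule UMIs in the cells kept and cannot decide their part. It turned to 0.19 when the 4 marker classes of endothelial cells were weighted equally. That weighting counts a venous class of 10 cells in A2 HTN and 33 in SS HTN as much as the peritubular capillary class of 1050 and 922 cells.

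Among the hormone-induced genes, Tsc22d3, which encodes the leucine zipper protein GILZ, was higher in endothelial cells. It stood at 135 CPM in A2 HTN (126 to 145), 129 in SS HTN (118 to 140), 58.2 in control library 1 (7.05 to 210.3) and 120 in control library 2 (85.8 to 162) in endothelial cells, and these intervals overlap. In other cells it was 57.3 CPM in A2 HTN (47.0 to 69.2), 76.8 in SS HTN (66.2 to 88.6), 59.1 in control library 1 (50.4 to 68.9) and 70.8 in control library 2 (57.4 to 86.4). The endothelial over other log2 ratio was 1.17 in A2 HTN (0.95 to 1.55), 0.71 in SS HTN (0.50 to 0.99) and 0.72 in control library 2 (0.19 to 1.30). No ratio between libraries passed 1.5-fold.

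Fkbp5, which encodes a co-chaperone that lowers the affinity of the glucocorticoid receptor for its hormone, was graded across libraries outside the endothelial gate. In other cells its level was 42.3 CPM in A2 HTN (33.5 to 52.7), 87.8 in SS HTN (76.5 to 100.4), 136 in control library 1 (123 to 151) and 198 in control library 2 (175 to 223). No interval overlaps another, and the controls themselves differed by a log2 ratio of 0.52 (0.30 to 0.77, control library 2 over control library 1). The A2 HTN ratio was -1.58 over control library 1 and -2.10 over control library 2, and the SS HTN ratio -0.61 over control library 1 and -1.13 over control library 2. At 1000 UMIs per cell, 3.12% of A2 HTN, 8.16% of SS HTN, 11.1% of control library 1 and 16.9% of control library 2 other cells had a Fkbp5 UMI. Markers of the thick ascending limb and distal convoluted tubule were also lower in the hypertension libraries, at 2782 CPM in A2 HTN, 3815 in SS HTN, 5351 in control library 1 and 4526 in control library 2. In the proximal tubule class alone Fkbp5 was 45.5 CPM in A2 HTN, 90.7 in SS HTN, 137 in control library 1 and 222 in control library 2. Macrophage markers were 108, 112, 158 and 671 CPM in these libraries. The part of either marker set in the result was not tested.

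The cells outside the gate without any endothelial marker UMI gave a different spacing for Fkbp5. There it was 41.5 CPM in A2 HTN (21.5 to 72.6) and 45.6 in SS HTN (21.9 to 83.9), against 124 in control library 1 (100.4 to 151) and 204 in control library 2 (172 to 240.2). The intervals of the hypertension libraries overlap there, from 12 and 10 UMIs, while both lie below both controls. In endothelial cells Fkbp5 showed no such grades, with 31.7 CPM in A2 HTN (27.2 to 36.8), 23.5 in SS HTN (18.95 to 28.8), 87.3 in control library 1 (18.0 to 255) and 29.1 in control library 2 (14.0 to 53.6).

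**Figure D2:**
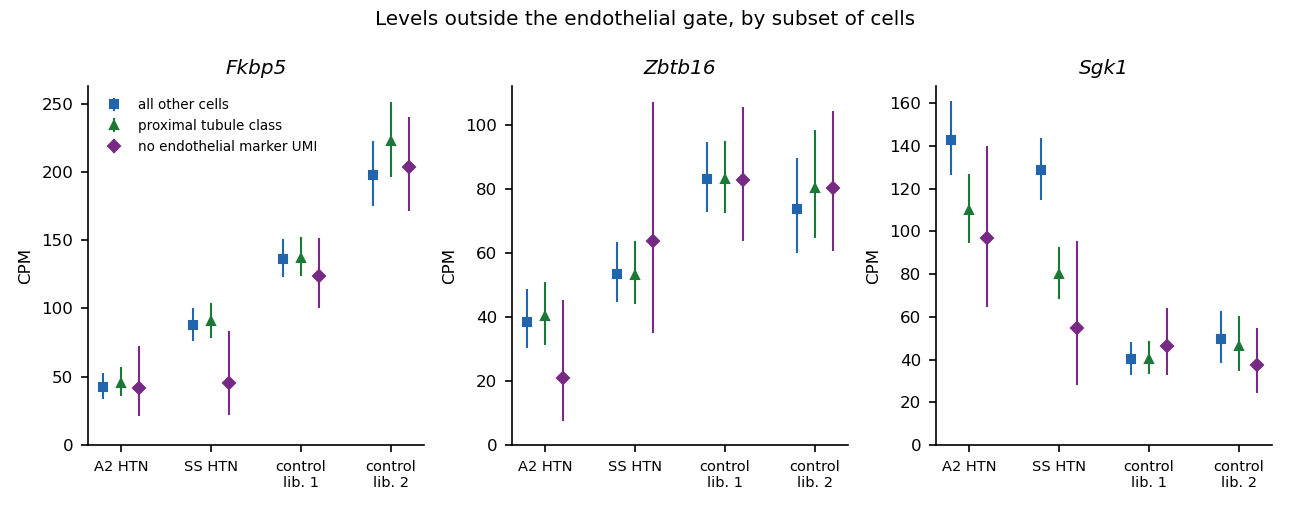
Levels in CPM of Fkbp5, Zbtb16 and Sgk1 in all other cells (squares), in those of the proximal tubule class (triangles) and in those with no UMI of 10 endothelial markers (diamonds), by library, with exact Poisson 95% intervals. Fkbp5 is lowest in A2 HTN and highest in control library 2 in each subset, and the Sgk1 level of SS HTN is 54.7 CPM in the diamonds against 129 CPM in the squares.

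Zbtb16, a zinc finger repressor gene, was lower in both hypertension libraries than in control library 1 outside the gate. Its A2 HTN level was also below that of control library 2, but not in cells thinned to 1000 UMIs. Its level in other cells was 38.6 CPM in A2 HTN (30.2 to 48.6), 53.5 in SS HTN (44.7 to 63.5), 83.2 in control library 1 (72.7 to 94.7) and 73.7 in control library 2 (60.05 to 89.6). A2 HTN lies below both controls, and SS HTN overlaps A2 HTN and control library 2. At 1000 UMIs per cell, 3.72% of A2 HTN, 4.31% of SS HTN, 9.50% of control library 1 and 3.68% of control library 2 other cells had a Zbtb16 UMI. The intervals of A2 HTN (2.42 to 5.44), SS HTN (3.07 to 5.87) and control library 2 (1.92 to 6.34) overlap. Thinning kept only cells with 1000 or more UMIs, 672 of 1614 other cells in A2 HTN and 326 of 1882 in control library 2. Of these, 25 and 12 had a Zbtb16 UMI. The A2 HTN over control library 2 log2 ratio was -0.85 in all UMIs and 0.0135 after this thinning, and that of SS HTN over control library 2 was -0.43 and 0.24. In endothelial cells it was 13.2 CPM in A2 HTN (10.4 to 16.6, 73 UMIs), 25.8 in SS HTN (21 to 31.3, 102 UMIs) and 37.9 in control library 2 (20.2 to 64.8, 13 UMIs), and no UMI was found in control library 1, which allows up to 87.3 CPM. The endothelial A2 HTN ratio was -0.75 over SS HTN (-1.41 to -0.51) and -1.23 over control library 2 (-2.38 to -0.54).

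Per1, a clock gene that glucocorticoids and aldosterone induce, was detected at the limit of these libraries. It had 66, 54, 0 and 4 UMIs in endothelial cells of A2 HTN, SS HTN, control library 1 and control library 2, and 44, 54, 49 and 27 in other cells. Levels were 12, 13.6 and 11.7 CPM in endothelial cells of A2 HTN, SS HTN and control library 2, against 23.6, 22.1 and 19.7 CPM in their other cells. All intervals between libraries overlap, and a difference was not detectable at this depth.

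The members past 1.5-fold were counted in each comparison beside the share of all tested genes. Between A2 HTN and SS HTN endothelial cells 3 of 9 members passed, all lower in A2 HTN (Nr3c2, Nedd4l and Zbtb16), where 10.8% of 10697 genes did, 3.25% higher and 7.59% lower. Over control library 2, 1 of 9 passed in A2 HTN endothelial cells, Zbtb16, which was lower, where 18.8% of genes did, 10.6% higher and 8.19% lower. In SS HTN endothelial cells 0 of 9 passed over control library 2, where 23.7% of genes did, 14.9% higher and 8.74% lower. These counts moved with the processing, to 1 of 9 between the models in the peritubular capillary class alone, to between 2 and 4 for A2 HTN over control library 2, and to 1 or 2 for SS HTN over it, so no reading above or below the background is made.

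In other cells 2 of 9 passed between A2 HTN and SS HTN, Fkbp5 and Nr3c2, both lower, where 5.74% of genes did, 3.01% higher and 2.73% lower. A2 HTN over control library 1 gave Sgk1 higher and Fkbp5, Zbtb16 and Nr3c2 lower, 4 of 9, where 17.5% of genes passed, 12.3% higher and 5.23% lower. Over control library 2 it gave Sgk1 higher and Fkbp5 and Zbtb16 lower, 3 of 9, where 12.6% of genes passed, 7.31% higher and 5.3% lower. SS HTN over control library 1 gave the same 3 genes in the same directions, where 12.3% of genes passed, 10.2% higher and 2.08% lower. Over control library 2 it gave Sgk1 higher and Fkbp5 lower, 2 of 9, where 9.96% of genes passed, 6.03% higher and 3.93% lower. These comparisons share their libraries. The controls set against each other, control library 2 over control library 1, gave 0 of 9, where 11.4% of genes passed, 8.5% higher and 2.88% lower.

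**Figure D3:**
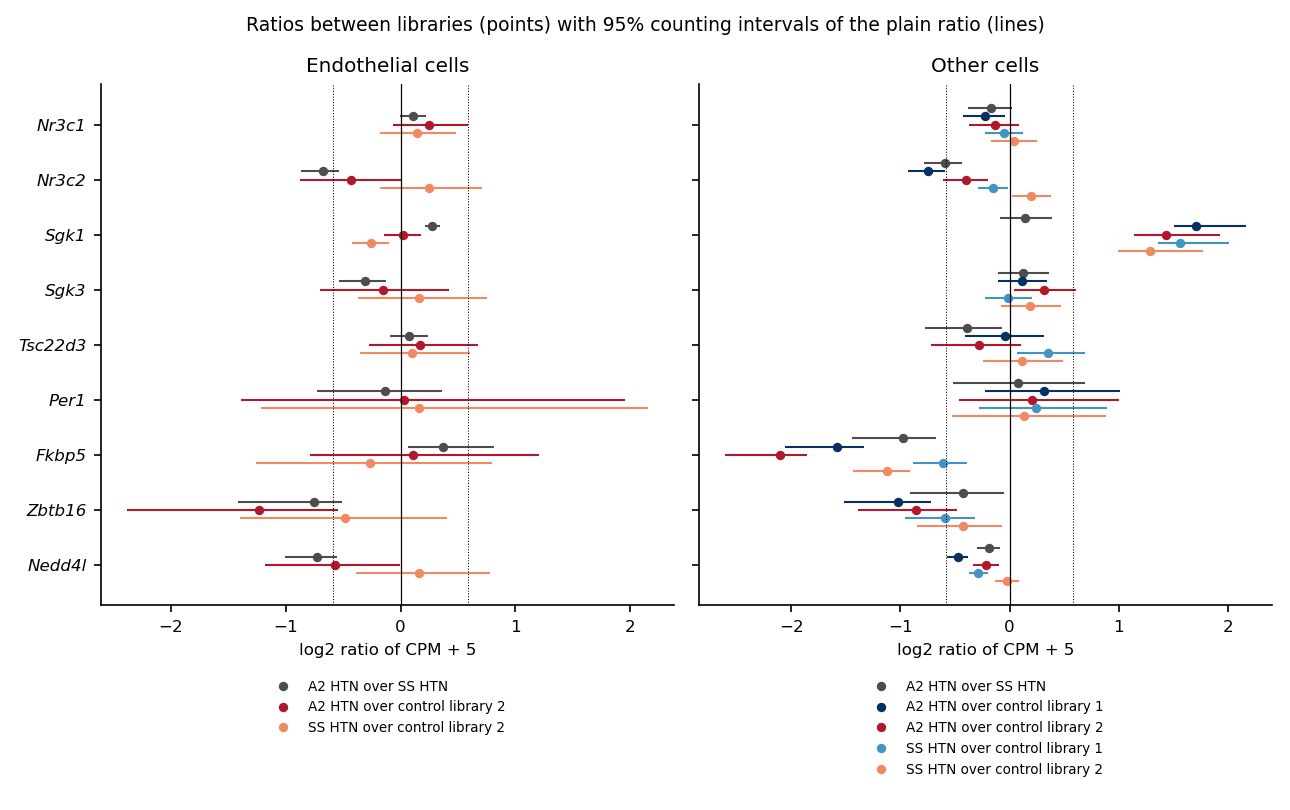
Log2 ratios of CPM + 5 (points) of each gene between libraries in endothelial and other cells, with exact 95% counting intervals of the plain ratio (lines); dotted lines mark 1.5-fold. Nr3c2, Nedd4l and Zbtb16 lie below the lower dotted line for A2 HTN over SS HTN in endothelial cells, and Sgk1 lies above the upper one for all 4 ratios over control libraries in other cells.

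Endothelial cells were split by marker UMIs into peritubular capillary, glomerular, arterial and venous classes, which are ranges of marker counts and not cell types. Their make-up differed between the models, with 1050 peritubular, 54 glomerular and 78 arterial cells in A2 HTN and 922, 222 and 225 in SS HTN. Sgk1 was higher in A2 HTN in the peritubular class, at 1024 against 808 CPM in SS HTN (log2 ratio 0.34, 0.26 to 0.42), and in the arterial class, at 808 against 555 CPM (0.54, 0.31 to 0.77). In the glomerular class the order was turned, with 1120 CPM in A2 HTN and 1409 in SS HTN (-0.33, -0.55 to -0.11). Nr3c2 was lower in A2 HTN in each of the 3, with 96.7 against 138 CPM in the peritubular class, 67.7 against 137 in the glomerular class and 166 against 232 in the arterial class. Its log2 ratio was -0.96 (-1.98 to -0.16) in the glomerular class and -0.47 (-0.95 to -0.04) in the arterial class. The glomerular value rests on 13 UMIs in A2 HTN. In the peritubular class the Nr3c2 ratio was -0.49 (-0.72 to -0.30), short of 1.5-fold, and in that class alone 1 of the 9 genes, Nedd4l, passed.

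Tsc22d3 followed the direction of Sgk1 in the peritubular and glomerular classes. It was 135 CPM in A2 HTN and 102 in SS HTN in the peritubular class (0.39, 0.18 to 0.62), and 115 against 157 CPM in the glomerular class (-0.44, -1.19 to 0.22). In the arterial class it was 181 CPM in A2 HTN and 179 in SS HTN. Whether ratios differ between classes was not tested.

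**Figure D4:**
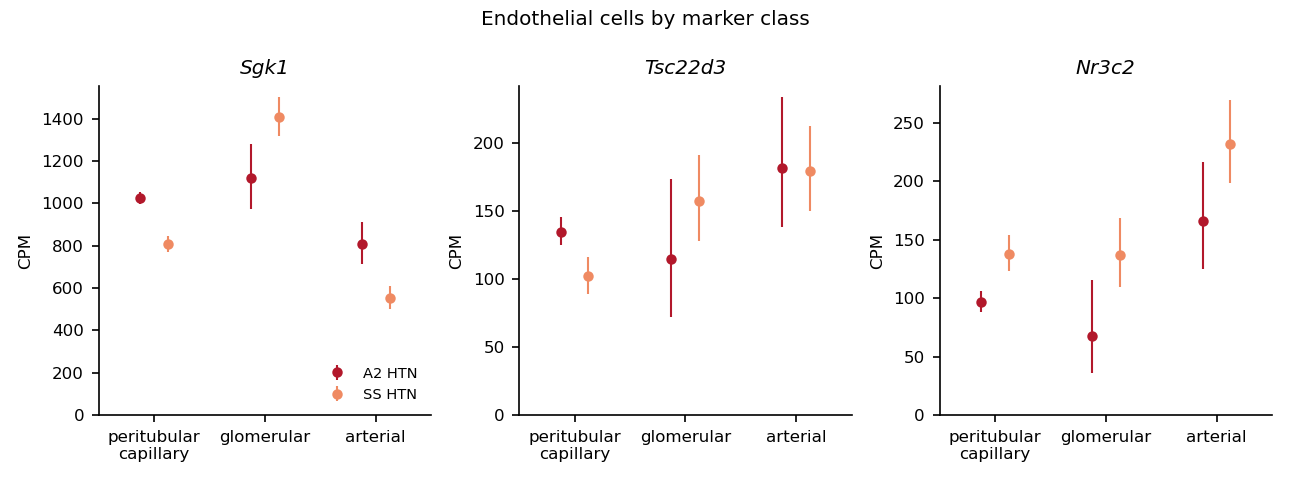
Levels in CPM of Sgk1, Tsc22d3 and Nr3c2 in 3 marker classes of endothelial cells of A2 HTN and SS HTN, with exact Poisson 95% intervals. Sgk1 is higher in A2 HTN in the peritubular capillary and arterial classes and lower in the glomerular class, while Nr3c2 is lower in A2 HTN in each class.

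Genes that act with the receptors were read from lists of named genes, each by its count past 1.5-fold and its median log2 ratio beside that of all genes. The shares of all genes higher and lower were 3.25% and 7.59% for A2 HTN over SS HTN in endothelial cells, 10.6% and 8.19% for A2 HTN over control library 2, and 14.9% and 8.74% for SS HTN over control library 2, and the counts of each list stand against these. Of 15 receptor chaperone and steroid metabolism genes, 0 were higher and 2 lower in A2 HTN than in SS HTN endothelial cells (median -0.24, all genes -0.03). The HSP90 genes Hsp90aa1 and Hsp90ab1 were these, at 208 and 1279 CPM in A2 HTN against 404 and 2146 CPM in SS HTN. Over control library 2 the same list gave 2 higher genes in A2 HTN (median 0.27) and 7 higher in SS HTN (median 0.56, all genes 0.04), where 10.6% and 14.9% of all genes were higher. In SS HTN Hsp90aa1 was 404 CPM against 149 CPM in control library 2, and Stip1, the adaptor between HSP70 and HSP90, 75.0 against 40.8 CPM. The heat shock gene Hspa1b moved with them, at 67.6 CPM in A2 HTN, 161 in SS HTN and 70.0 in control library 2, and its near-identical copy makes that value uncertain. What part tissue dissociation has in these values was not tested.

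Of 25 other glucocorticoid-induced genes, 2 were higher and 3 lower in A2 HTN than in SS HTN endothelial cells, with a median of -0.02. Rgcc, a cell cycle regulator of endothelium, was 1171 CPM in A2 HTN against 560.2 in SS HTN, and the sulfotransferase gene Sult1a1 70.0 against 36.6 CPM. Glutamine synthetase, Glul, was 89.9 CPM in A2 HTN against 206 in SS HTN, and Fam107a 4.35 against 17.9 CPM. Over control library 2, 2 of 23 tested were higher and 1 lower in A2 HTN, where 10.6% and 8.19% of all genes were, and 6 higher and 3 lower in SS HTN, where 14.9% and 8.74% were. In SS HTN Glul was 206 CPM against 46.6 in control library 2, whereas Rgcc was 560.2 against 1332 CPM. The list thus had members in both directions in each of these 3 endothelial comparisons. In other cells it had 8 higher and 0 lower of 25 for A2 HTN over control library 1 (median 0.32), where 12.3% and 5.23% of all genes were. SS HTN over control library 1 gave 8 higher and 1 lower (median 0.15), where 10.2% and 2.08% were. A2 HTN over control library 2 gave 4 higher and 1 lower (median 0.02), where 7.31% and 5.3% were. For SS HTN over control library 2 it was 2 and 2 (median -0.01), where 6.03% and 3.93% were. Control library 2 over control library 1 gave 4 higher and 2 lower (median 0.34), where 8.5% and 2.88% were.

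Of 18 tested sodium transport genes under mineralocorticoid control, 0 were higher and 4 lower in A2 HTN than in SS HTN endothelial cells (median -0.29), where 3.25% of all genes were higher and 7.59% lower. Slc12a1, the cotransporter of the thick ascending limb, was 41.0 against 90.9 CPM and the sodium pump subunit Atp1b1 21.2 against 42.2 CPM. These are tubule transcripts. The tubule marker sum in the same cells, which includes Slc12a1, was 801 CPM in A2 HTN against 1497 in SS HTN. The part of tubule transcripts in the result was not tested. Over control library 2 the sodium transport list gave 0 higher and 7 lower of 18 in A2 HTN endothelial cells (median -0.30). It gave 1 higher and 2 lower of 17 in SS HTN (median 0.01). Of all genes 10.6% were higher and 8.19% lower in A2 HTN, and 14.9% and 8.74% in SS HTN. Of 17 genes of kinases above SGK and their substrates none passed 1.5-fold for A2 HTN over SS HTN in endothelial cells (median -0.13). Of 18 coregulator genes 1 was lower, the coactivator gene Ppargc1a at 8.16 CPM in A2 HTN against 23.7 in SS HTN (median -0.17). Of 16 immediate early genes, which handling of tissue can induce, 0 were higher and 2 lower, Hspa1b and Fos, with Fos at 8.16 CPM in A2 HTN against 19.7 in SS HTN (median -0.02). In other cells the list differed more. Control library 2 over control library 1 gave 11 higher and 1 lower (median 1.03), where 8.5% and 2.88% of genes were. Over control library 1, A2 HTN gave 6 and 1, where 12.3% and 5.23% were. SS HTN gave 8 and 1, where 10.2% and 2.08% were. Over control library 2 each gave 2 and 7. There 7.31% and 5.3% of genes were for A2 HTN and 6.03% and 3.93% for SS HTN. The part of handling was not tested.

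Per1 belongs to the clock, and clock genes lay in both directions between the models. Of 16 clock genes other than Per1, 2 were higher and 2 lower in A2 HTN than in SS HTN endothelial cells (median 0.18). Dbp, an output gene of the clock, was 19.6 against 5.30 CPM (log2 ratio 1.25), and Per3, a repressor gene, 37.7 against 22.2 CPM (0.65). Arntl, the activator BMAL1, was 64.5 CPM in A2 HTN against 100.5 in SS HTN (-0.60), and Npas2, its partner, 2.54 against 13.4 CPM (-1.29). In other cells the ratio of A2 HTN over SS HTN was 0.67 for Dbp, 0.31 for Per3, -0.33 for Arntl and -0.33 for Npas2. The sources used here do not give the time of day of tissue collection.

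**Figure D5:**
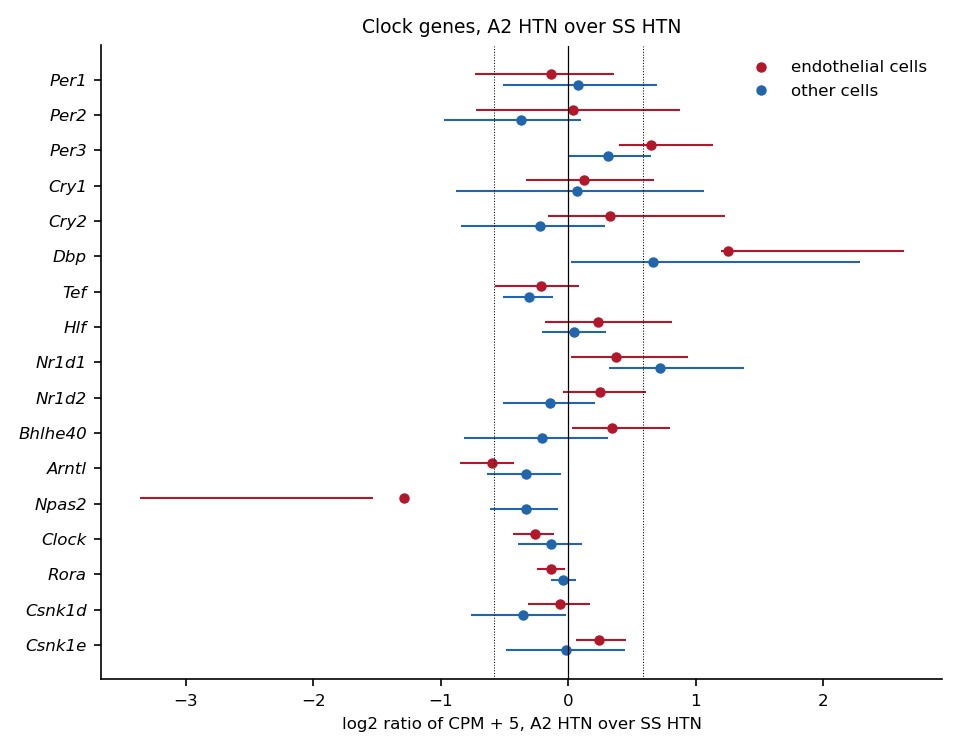
Log2 ratio of CPM + 5 of A2 HTN over SS HTN (points) for Per1 and 16 other clock genes in endothelial and other cells, with exact 95% counting intervals of the plain ratio (lines), which for a gene as low as Npas2 lie beyond the point; dotted lines mark 1.5-fold. Dbp and Per3 lie to the right of 0 and Arntl and Npas2 to the left in both kinds of cell.

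The genes most like each member were taken by Pearson correlation of log2(CPM + 5) over 27 sums of a class in a library, among 11040 genes, as a description of sums that share libraries and depth. Sgk1 was most like Icam2 (r = 0.93), an adhesion molecule gene of endothelium, followed by Dusp3 and Ly6e (both 0.92). Nedd4l was most like Itpr1 (0.96), Pth1r (0.96) and Lactb2 (0.95), and Nr3c2 like Immt (0.91), Zhx3 (0.90) and Stub1 (0.88). Fkbp5 was most like Arhgap6 (0.82), Tsc22d3 like Cuta (0.83), Zbtb16 like Tug1 (0.79), Sgk3 like Ube2w (0.75) and Nr3c1 like Jak1 (0.68). Per1 was most like Fam227a (0.89), and both rest on few UMIs.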

How the data were processed

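Values in the tables deposited by the authors are whole-number UMI counts, and the sources used here do not say whether the depth of the joined control table was equalised between its libraries. The kit was a droplet 3' one, per the labels' protocols. Among the tools, Seurat 4.1 and Cell Ranger 7.0.0 are listed in the submitters' processing notes, as is build mm10, without their roles. Tables of A2 HTN, SS HTN and both controls were used, and a table joining the hypertension libraries served as an alternative, since its A2 HTN cells hold 88.2% of the counts of their own table. No table holds mitochondrial genes, cells were used as deposited, and no doublet caller was run, though leaving out the deepest 5% of cells was tried. Counts were summed per library and kind of cell with Python 3.11.15 and pandas 2.3.3, scaled to CPM over 11049 genes, and given exact Poisson, binomial (Clopper-Pearson) or conditional binomial intervals from scipy 1.17.1. Log2 ratios use CPM + 5 and understate changes of low genes. TMM factors came from edgeR 4.0.16 as an alternative scaling. The ratio script was tested on simulated data. Members and gene lists were chosen with earlier results of these data known. Named list genes are up to 3 per direction with the largest ratio among those past 1.5-fold with 50 or more UMIs, in endothelial comparisons, and their values elsewhere follow. The subset of other cells with no endothelial marker UMI was an alternative chosen after seeing the data, and its cells are shallower than the rest in each library. Levels count 3' ends and are not compared between genes. Gene positions on GRCm38 are from GENCODE, in which Fkbp5, Nr3c2, Nedd4l and Sgk3 overlap small or antisense RNA genes, and the sources used here do not say how overlapping reads were assigned.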

Additional observations from a re-analysis of the deposited data

Results flagged for a closer look

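Fkbp5 stood out because its ratio of A2 HTN over SS HTN ran in opposite directions in the different kinds of cell. The log2 ratio was 0.37 in endothelial cells (0.06 to 0.81) and -0.97 in other cells (-1.45 to -0.68). Under alternatives the endothelial ratio ran from -0.83 to 0.42, so its direction changed, and the ratio in other cells from -1.28 to -0.12. In the peritubular capillary class alone it was 0.26 (-0.13 to 0.74). Each side is 1 library, and the difference between the ratios was not tested.

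Sgk1 stood out for the same reason in SS HTN over control library 2. The log2 ratio was -0.26 in endothelial cells (-0.42 to -0.10) and 1.29 in other cells (0.99 to 1.77). Under alternatives it ran from -0.28 to 0.14 in endothelial cells and from 0.50 to 1.40 in other cells. The difference was not tested. In the other cells with no UMI of 10 endothelial markers Sgk1 was 54.7 CPM in SS HTN and 37.3 CPM in control library 2, with overlapping intervals.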

How the results depend on the processing

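Of 1100 member ratios recomputed under alternatives, 993 stayed within their counting interval, 105 moved outside it and 2 reversed. Only a ratio past 1.5-fold as reported could count as reversed, so smaller ratios that changed sign are among the others. Fkbp5 in endothelial cells, A2 HTN over SS HTN, for example, was 0.37 as reported and ran from -0.83 to 0.42. Nedd4l in endothelial cells, A2 HTN over SS HTN, was 0.19 (-0.73 as reported) with 4 classes weighted equally, and Zbtb16 in other cells, A2 HTN over control library 2, was 0.0135 (-0.85 as reported) with cells thinned to 1000 UMIs. The cause was not tested. The count of members past 1.5-fold for A2 HTN over SS HTN in endothelial cells was 3, and 1 in the peritubular capillary class alone. For A2 HTN over control library 2 it was 1, against 2 with thinning, with a pseudocount of 1 CPM, with totals over all genes and without endothelial cells over 1% tubule UMIs, 3 with a gate of 2 UMIs and 6 per 10000 or of 6 UMIs and 24 per 10000, and 4 without the deepest 5% of cells. For SS HTN over control library 2 it was 0, against 2 with thinning and without the deepest cells, and 1 by the mean over cells and in the peritubular class alone. Endothelial over other cells in A2 HTN gave 8, and 4 with the gate of 6 UMIs. In other cells A2 HTN over SS HTN gave 2, and 1 with TMM scaling or thinning. SS HTN over control library 1 gave 3, against 5 with the gate of 6 UMIs, 1 with no endothelial marker UMI and 1 without the deepest cells. SS HTN over control library 2 gave 2, and 1 with no endothelial marker UMI.

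No paired analysis was possible because each group is 1 pooled library with no replicate. Depth limits the control endothelial sums, of 34358 and 343076 UMIs in control library 1 and control library 2, against 5517870 in A2 HTN and 3960786 in SS HTN. Control endothelial cells therefore carry wide intervals for Per1, Zbtb16 and Fkbp5. No library has a replicate, so animal, batch and model cannot be told apart.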
